A study of Rattus norvegicus with 3 samples.

Results

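The genes described here are 9 regulators of muscle fibre type together with a readout of calcineurin activity, followed across the denervated soleus, the normal plantaris and the normal soleus of the rat. They were taken by name, as Six4, Eya1, Sox6, Maf, Tead1, Nfatc1, Nfatc3, Prox1 and Rcan1, and their probes were found through the RefSeq accession each probe carries. Of the 9 genes, 7 had at least 1 such probe, giving 10 probes and 17 spots among 30367 probes and 58717 non-control spots in all. No probe was matched to Eya1 or Nfatc1, so neither was analysed here. The 3 one-colour arrays measured messenger RNA in calf muscle of male rats aged 12 weeks, given in the labels as Wistar Honnover: 1 array for the soleus 28 days after the left sciatic nerve was cut over about 5 mm, 1 for the plantaris of a normal rat and 1 for the normal soleus, the slow postural muscle. The normal rats had no treatment, and the normal soleus array is placed by its source name, since its title does not name the muscle. How many rats gave RNA to an array is not stated in the labels, and with 1 array per group no p-value or SD across samples can be given.

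Slow and fast fibres are built from different sets of sarcomere, calcium-handling and metabolic genes, and the choice between them is held by nerve activity. Steady slow-motoneuron firing keeps calcium raised, which activates the phosphatase calcineurin. Calcineurin dephosphorylates the Nfat factors, which then enter the nucleus. In mouse muscle Six4, its relatives, their Eya partners and the large Maf factors favour fast fibre genes, Sox6 represses slow ones, and Prox1 and Tead1 have been tied to the slow programme. Rcan1 encodes a calcineurin-binding inhibitor, and a form of it is itself switched on by Nfat, so its mRNA is widely used as a reading of calcineurin activity.

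The arrays had 67.0% (denervated soleus), 65.3% (plantaris) and 64.2% (normal soleus) of their probes well above background. The 5 measured skeletal muscle markers (Acta1, Ckm, Des, Cacna1s and Mb) were so on all 3. The labels name the muscles and not a fibre type, which was read from slow and fast fibre genes. All 10 slow fibre genes, Myh7 and Tnni1 among them, were at least 2-fold lower in plantaris than in normal soleus, and 10 of 11 fast fibre genes were at least 2-fold higher there. In denervated over normal soleus, 9 of 10 slow fibre genes were at least 2-fold lower and 4 of 11 fast ones at least 2-fold higher. The 4 were Myh1 (4.43) and Myh4 (1.30), 2 fast myosin heavy chains, Actn3 (5.15), the fast Z-disc actinin, and Pvalb (6.02), the calcium buffer of fast fibres, which in plantaris over normal soleus stood at 7.37, 7.22, 9.59 and 8.20. The other fast genes (Myh2, Tnni2, Tnnt3, Tnnc2, Myl1, Atp2a1 and Casq1) lay between 0.98 and 3.11 in plantaris and between -0.85 and 0.72 with denervation, and Myh2 was the 1 short of 2-fold in plantaris. Besides Myh7 and Tnni1, the slow genes were Myh7b, Myl2, Myl3, Tnnc1, Tnnt1, Tpm3, Atp2a2 and Casq2, and Tnnt1 was the 1 short of 2-fold with denervation (-0.60). Levels below are log2 processed signals relative to the 75th percentile of their own array, so 1 unit is 2-fold, and they can be set side by side between arrays for a probe but not between probes. The error (±) of a log2 fold is the scanner software's own and covers measurement only. A fold is taken as an effect here at 1 log2 unit, a rule of size and not a test. The normal plantaris and normal soleus arrays shared a slide and the denervated array lay on another, so denervation and slide cannot be told apart. Of the 5 skeletal muscle markers, 3 were at least 2-fold lower in denervated than in normal soleus (Acta1 at -2.44, Ckm at -1.48 and Des at -1.21), and 4 of 5 adipocyte markers were at least 2-fold higher there, with summed levels of 67.7 in denervated and 15.4 in normal soleus. All 6 fibroblast markers were higher there too, between 0.53 and 2.56 (median 0.83), with summed levels of 161 in denervated and 86.3 in normal soleus. The fibroblast sum was 157 in plantaris, although the marker median in plantaris over normal soleus was -0.29. Such sums, here and below, follow mainly the brightest probes and do not measure the amount of a cell type. Of 7 Schwann cell markers, 2 were at least 2-fold higher and 3 lower. The part of these cells in the denervation values was not tested. In such bulk muscle RNA, fewer cells of a type and less RNA per cell cannot be told apart either.

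The broad pattern was simple. Sox6 and Maf were far higher in plantaris than in normal soleus, and Rcan1 was far lower. In the denervated soleus Rcan1 was lower than in the normal soleus too, Sox6 and Maf lay between the plantaris and the normal soleus, and Tead1 was lower than in both normal muscles. The brighter probes of Six4 and Nfatc3 stayed within 2-fold in each comparison, while their fainter probes passed it in some, as given below. In plantaris over normal soleus, 2 of the 7 measured genes (Sox6 and Maf) were at least 2-fold higher, where 5.71% of all 11015 genes were, and 1 (Rcan1) was at least 2-fold lower, where 6.11% of all genes were. In denervated over normal soleus, 1 of 7 (Sox6) was at least 2-fold higher, against 8.73% of 11318 genes. There 3 (Rcan1, Prox1 and Tead1) were at least 2-fold lower, against 13.4% of all genes. Sox6 and the Prox1 bound fell short of 2-fold there under some other settings, as given below. In denervated soleus over plantaris, 0 of 7 were at least 2-fold higher, against 12.0% of 11371 genes, and 4 (Sox6, Maf, Tead1 and Prox1) were lower, against 16.7% of all genes. The Prox1 entry in that last count rests on a spot that its repeat does not bear out, as given below, which leaves 3. Without Prox1, the median over the other 6 genes was 0.46 in plantaris over normal soleus, 0.19 in denervated over normal soleus and -1.18 in denervated soleus over plantaris, beside 0.02, 0.02 and 0.01 over all genes tested. With Prox1 in denervated over normal soleus, where its fold is a bound, the median over 7 was -0.13. The 3 comparisons share arrays, so they are not independent of each other.

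**Figure D1:**
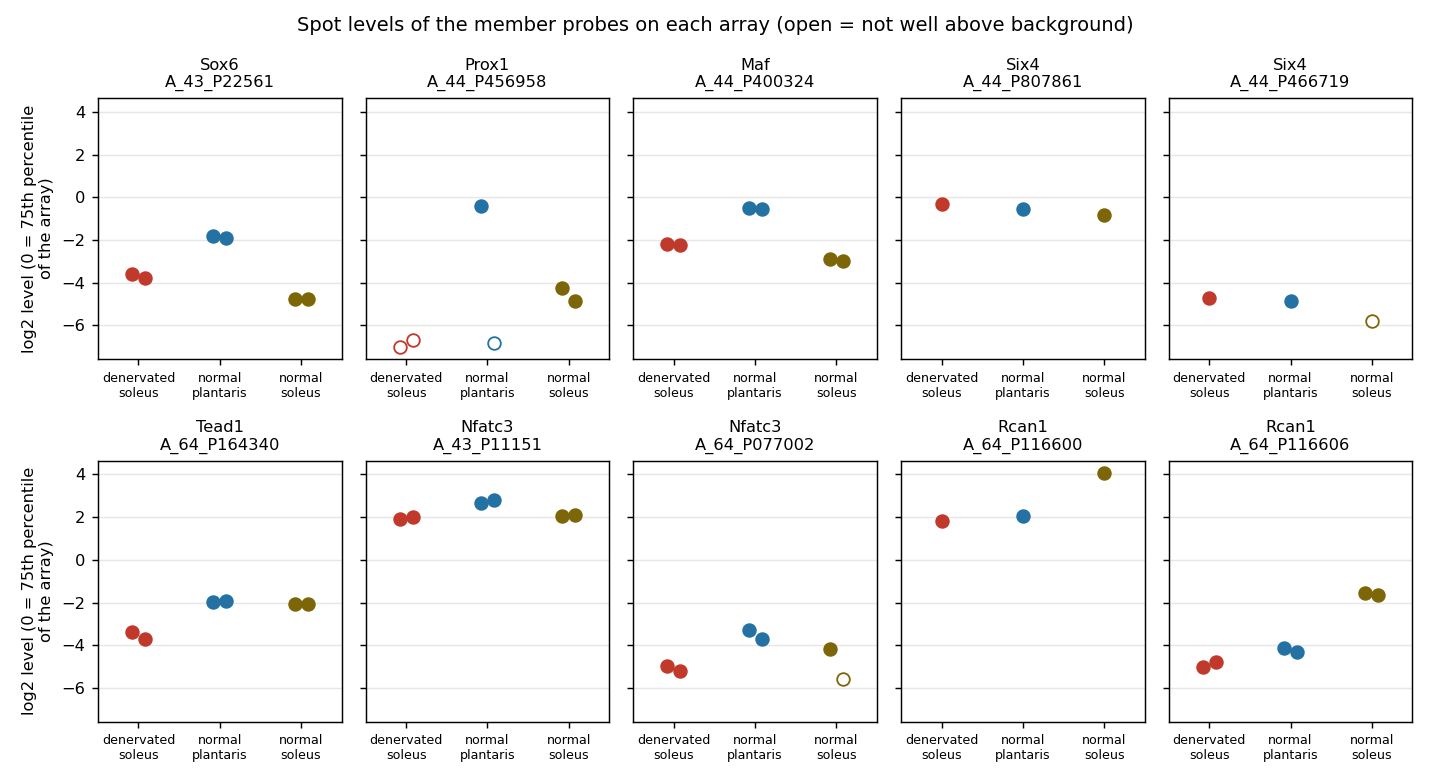
Log2 level (y axis, 0 is the 75th percentile of the array) of every spot of the 10 probes on the denervated soleus, normal plantaris and normal soleus arrays (x axis). Open points were not well above background. Sox6 and Maf are highest in plantaris, both Rcan1 probes are highest in normal soleus, and the Prox1 spots on the plantaris array lie over 6 units apart.

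Sox6 encodes an SRY-box factor that represses slow fibre genes in mouse fast muscle. Its 2 spots stood at -3.60 and -3.78 on the denervated array, -1.83 and -1.91 on the plantaris array and -4.77 and -4.74 on the normal soleus array. The spots of the 3 arrays did not overlap, with plantaris highest, the denervated soleus next and the normal soleus lowest. Over all probes with 2 usable spots the median range between repeats was 0.12 to 0.13 units on an array. Repeat spots share an array, so their separation does not measure a spread between rats. Sox6 was 7.38-fold higher in plantaris than in normal soleus (2.88 ± 0.32), and 45 of 11015 genes had a fold that high or higher. It was 2.09-fold higher in denervated than in normal soleus (1.06 ± 0.33) and 3.53-fold lower in denervated soleus than in plantaris (-1.82 ± 0.22). The gene is faint in the normal soleus, with signals of 33.0 and 33.8 where the faintest probe counted as well above background had 11.2. That minimum is not a fixed limit, since Six2 at 22.3 on the same array was not well above background. With a different background correction, which adds 50 to each signal, the plantaris fold was 1.69 and the denervation fold 0.26. From the last spot alone the denervation fold was 0.96. Sox6 thus fell short of the 2-fold mark for denervation in both settings.

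Maf encodes c-Maf, a member of the large Maf family that activates the fastest myosin heavy chain gene in mouse. Its spots stood at -2.17 and -2.22 on the denervated array, -0.51 and -0.53 on the plantaris array and -2.91 and -2.99 on the normal soleus array. The order was the same as for Sox6 and again no spots overlapped. Maf was 5.37-fold higher in plantaris than in normal soleus (2.42 ± 0.21), with 81 of 11015 genes as high or higher. In denervated over normal soleus it stood at 0.75 ± 0.21, below 2-fold but past 2 errors, and at 0.45 with the other background correction. Denervated soleus was 3.18-fold below plantaris (-1.67 ± 0.21). Macrophages also express Maf. All 10 macrophage markers were measured well above background on every array, and all 10 were lower in plantaris than in normal soleus (-0.80 to -0.33). Their summed level, in multiples of the 75th percentile, was 37.7 in denervated soleus, 23.2 in plantaris and 32.7 in normal soleus, and in denervated over normal soleus their median was 0.43. The part of macrophages in the Maf values was not tested. The small Maf gene Mafk stood at -0.08 in plantaris and -0.16 in denervated over normal soleus.

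Prox1 encodes a homeobox factor of slow fibres that also defines lymphatic endothelium. It has 1 probe, and its 2 spots disagreed on the plantaris array, where signals of 558.3 and 6.59 gave levels of -0.41 and -6.82. The first was well above background and the second was not, and neither bore an outlier flag. Of 15839 probes with 2 usable spots on that array, this was the only pair over 6 log2 units apart. Among 58 neighbouring spots with a repeat elsewhere, within 4 rows and columns of the bright one, the median excess over the repeat was 0.04, and 8 exceeded 1 unit, against 2 of 58 around the faint spot. Around the same bright position 2 of 58 did so on the denervated array and 11 on the normal soleus array. No level of Prox1 in plantaris, and no fold against it, is therefore read here. On the denervated array both spots were below the mark (-7.01 and -6.67), and on the normal soleus array both were above it (-4.22 and -4.84). Prox1 was thus lower in denervated than in normal soleus by at least 4.92-fold (-2.30 ± 0.90), a bound on faint signals of 48.3 and 31.4 in the normal soleus. That bound was -0.84 with the other background correction and -0.97 from the last spot alone. The 4 lymphatic markers measured were Lyve1, Flt4, Pdpn and Reln. In denervated over normal soleus they lay between -0.59 and 0.71, none past 2-fold, with a summed level of 3.99 in denervated and 3.01 in normal soleus.

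Six4 encodes a homeodomain factor that acts with Eya proteins on fast fibre genes in mouse. Its brighter probe had 1 spot per array, at -0.32 in denervated soleus, -0.54 in plantaris and -0.82 in normal soleus. The folds were 0.28 ± 0.20 for plantaris and 0.50 ± 0.20 for denervated over normal soleus, and neighbouring muscles in that order differed by less than 2 errors. The second Six4 probe was faint, with signals of 46.6 in denervated soleus and 26.1 in plantaris, and 16.4 in normal soleus, where it was not well above background. It gave bounds of 0.95 ± 0.65 for plantaris and 1.07 ± 0.63 for denervated over normal soleus, and the second was 0.00 with the other background correction. Its relative Six2 was above background in plantaris alone and its bound was 2.11 ± 0.43 over normal soleus. Of the 5 list genes with a probe, 1 was at least 2-fold higher in plantaris and 0 of the 4 tested were past 2-fold with denervation, and Eya2 and Eya3 lay within 1 unit in both.

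Tead1 encodes a TEA domain factor that binds the MCAT element of many muscle promoters, and forced Tead1 expression in mouse shifts muscle toward slow fibres. Its spots stood at -3.39 and -3.68 on the denervated array, -1.99 and -1.93 on the plantaris array and -2.06 and -2.07 on the normal soleus array. The normal muscles differed by less than the error (0.11 ± 0.21), and the spots of the denervated array lay below those of both. Tead1 was 2.77-fold lower in denervated than in normal soleus (-1.47 ± 0.22) and 2.98-fold lower than in plantaris (-1.57 ± 0.22). It stayed past 2-fold under all the alternatives tried, between -1.61 and -1.18 against normal soleus. Vgll2, a Tead cofactor largely limited to skeletal muscle, differed more. It stood at -2.32 on the denervated array, -0.44 on the plantaris array and 0.76 on the normal soleus array. Vgll2 was thus lower in both than in normal soleus, with log2 folds of -3.08 ± 0.21 in denervated soleus and -1.19 ± 0.20 in plantaris. The other Tead genes were within 2-fold in both, with Tead2 at -0.81 and Tead3 at -0.65 in plantaris and -0.70 and 0.21 with denervation. So were Vgll4 and Wwtr1, which encodes the coactivator TAZ. Of the 6 measured genes of that list, 0 were higher and 1 lower in plantaris, and 0 higher and 2 lower in denervated soleus, with medians of -0.27 and -0.29.

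**Figure D2:**
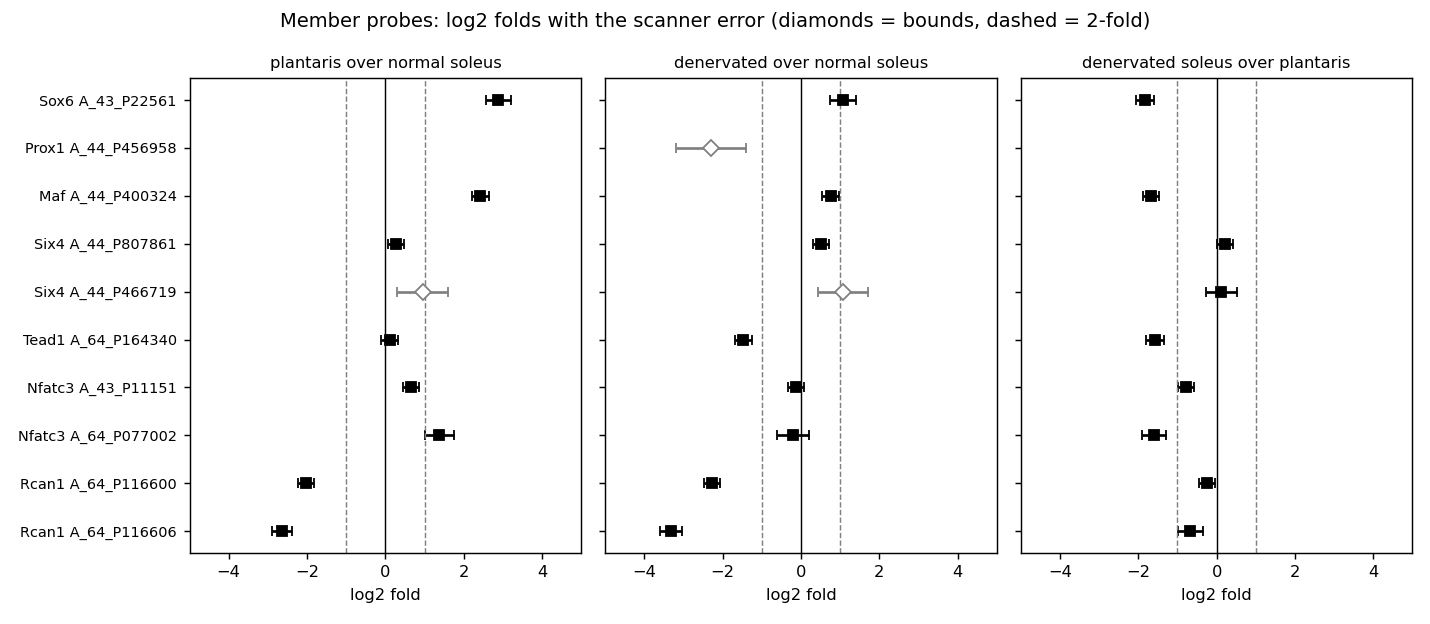
Log2 folds (x axis) of the 10 probes in 3 comparisons, with the scanner error as bars. Squares are measured on both arrays, diamonds are bounds, dashed lines mark 2-fold, and the comparisons of Prox1 with plantaris are not drawn. Both Rcan1 probes lie left of the 2-fold line in both comparisons over normal soleus, and between denervated soleus and plantaris they stand at -0.24 and -0.67.

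Nfatc3 encodes a calcineurin-regulated factor. The brighter of its 2 probes stood at 1.92 and 2.0 on the denervated array, 2.68 and 2.79 on the plantaris array and 2.08 and 2.10 on the normal soleus array. Plantaris was highest, by 1.56-fold over normal soleus (0.64 ± 0.20), while denervated and normal soleus differed by less than the error (-0.13 ± 0.20, or 0.11 with the authors' values). The second probe was far fainter. It gave 1.38 ± 0.36 for plantaris over normal soleus, but 1 of its 2 normal soleus spots was not well above background, and the value was 0.65 with the other background correction and 0.88 from the first spot alone. With both probes averaged, Nfatc3 stood at 1.01 in plantaris over normal soleus. In denervated soleus over plantaris the brighter probe stood at -0.78 ± 0.20, past 2 errors, and the fainter at -1.59 ± 0.30. There the fainter probe stayed past 2-fold under the alternatives tried, between -1.68 and -1.05. The average of both probes was -1.18 in that comparison. Nfatc4 was at 0.91 ± 0.20 and Nfat5 at 0.76 ± 0.20 in denervated over normal soleus, and both lay within 0.2 of 0 in plantaris. Nfatc2 was above background in plantaris alone, with a bound of 0.51 ± 0.50. None of these 3 genes passed 2-fold over normal soleus. In denervated soleus over plantaris Nfatc4 stood at 1.08 ± 0.20 and Nfatc2 at a bound of -1.61 ± 0.70. The median of the 3 Nfat genes tested with denervation was 0.76, with 1.0 for the authors' values, whose scale moved the median of all genes to 0.26, and 0.31 with no filter on dim probes.

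Rcan1, the calcineurin readout, had 2 probes that ran the same way. The brighter, with 1 spot per array, stood at 1.82 in denervated soleus, 2.07 in plantaris and 4.09 in normal soleus. The second stood at -5.02 and -4.78 in denervated soleus, -4.14 and -4.31 in plantaris and -1.53 and -1.64 in normal soleus. Normal soleus was highest on both. On the brighter probe Rcan1 was 4.07-fold lower in plantaris (-2.02 ± 0.20) and 4.82-fold lower in denervated soleus (-2.27 ± 0.20) than in normal soleus. On the second it was 6.26-fold (-2.65 ± 0.25) and 9.96-fold lower (-3.32 ± 0.28), or -1.56 and -2.16 with the other background correction. Between denervated soleus and plantaris the brighter probe differed by -0.24 ± 0.20 and turned to 0.11 with the authors' values, and the second by -0.67 ± 0.31. Of all genes tested, 164 of 11015 were as low as Rcan1 in plantaris over normal soleus, and 249 of 11318 in denervated over normal soleus. The slow fibre genes that share its direction against normal soleus mostly did not share its level in denervated soleus. Of the 10, 6, Myh7 among them, were at least 2-fold higher in denervated soleus than in plantaris. Tpm3, Atp2a2 and Myl3 stood at 0.97, 0.88 and 0.67 there. Only Casq2, the calsequestrin of slow fibres, was lower, at -0.30, near the -0.24 of the brighter Rcan1 probe. Endothelial cells also express Rcan1. Of the 8 blood endothelial markers measured, 0 were at least 2-fold higher and 1 lower in plantaris over normal soleus, and 0 higher and 3 lower in denervated over normal soleus. Cdh5 stood at -1.71 in plantaris and -2.30 in denervated over normal soleus, close to the brighter Rcan1 probe, and with denervation Kdr stood at -1.39 and Flt1 at -1.29. The 8 markers had medians of -0.27 in plantaris and -0.49 in denervated over normal soleus, with summed levels of 7.66 in denervated soleus, 11.1 in plantaris and 13.8 in normal soleus, and their part in the Rcan1 values was not tested.

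Promoter sequences are shown for Rcan1, Sox6 and Maf, the genes that differed most between plantaris and normal soleus, since Rcan1 is read here for its response to Nfat. RefSeq promoter windows (rat build GRCr8, 250 bases before to 50 after a transcript start) were found for 4 of the 9 genes, namely Rcan1, Sox6, Maf and Six4. All 4 lie on the minus strand, and the letters below run 5′ to 3′ along the gene. Capitals mark GGAAA, the core of the Nfat element, on either strand. The Rcan1 window is chr11:45118187-45118486, the Sox6 window chr1:179665322-179665621 and the Maf window chr19:60621307-60621606.
Rcan1: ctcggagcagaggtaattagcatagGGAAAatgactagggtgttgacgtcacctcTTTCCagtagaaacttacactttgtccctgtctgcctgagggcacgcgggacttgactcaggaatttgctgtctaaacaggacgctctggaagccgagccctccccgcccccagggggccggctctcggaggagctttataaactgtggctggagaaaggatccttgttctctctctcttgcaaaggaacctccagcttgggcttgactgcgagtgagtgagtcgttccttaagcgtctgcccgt
Sox6: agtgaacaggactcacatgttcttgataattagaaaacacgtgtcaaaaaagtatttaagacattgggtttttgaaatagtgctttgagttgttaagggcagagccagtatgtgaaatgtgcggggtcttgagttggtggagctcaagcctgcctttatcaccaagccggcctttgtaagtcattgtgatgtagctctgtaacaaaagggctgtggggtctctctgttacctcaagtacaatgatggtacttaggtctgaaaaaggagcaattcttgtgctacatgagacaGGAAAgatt
Maf: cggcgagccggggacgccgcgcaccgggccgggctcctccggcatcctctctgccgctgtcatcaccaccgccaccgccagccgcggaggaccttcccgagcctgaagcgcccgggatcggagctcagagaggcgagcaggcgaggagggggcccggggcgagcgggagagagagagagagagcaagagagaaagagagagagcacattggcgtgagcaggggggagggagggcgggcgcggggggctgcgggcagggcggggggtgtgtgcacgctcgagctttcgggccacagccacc
The Rcan1 window holds 2 matches, which begin 225 and 195 bases before the start, the first in the same direction as the gene and the second on the other strand. Its start lies 69829 bases inside the annotated gene, so it belongs to an internal start and not to the farthest upstream one. The Sox6 window is internal as well, with its start 103872 bases inside the gene, while the Maf start lies 789 bases inside and the Six4 start at the upstream end. In human and mouse the Nfat-driven form of Rcan1 also begins at an internal promoter, but the tables used here do not say which transcript each probe reads. The Sox6 window holds 1 match, 41 bases after the start, the Maf window 0 and the Six4 window 2. At least 1 match occurs in 62.7% of the 33469 rat windows of this length and at least 2 in 28.5%, so such matches are common. Of the other motifs searched on both strands, the Sox core ACAAT had 2 matches in the Sox6 window and in none of the other 3, and so did the E-box CANNTG. The Tead element CATTCC, the MEF3 element TCAGGTT, which Six4 and its relatives bind, and the Maf site TGCTGAC had 0 matches in all 4 windows. Over all windows at least 1 match was held by 33.7% for ACAAT, 72.1% for CANNTG, 14.2% for CATTCC, 4.03% for TCAGGTT and 4.44% for TGCTGAC. No binding was measured, and a match is only a match of letters.

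The calcineurin subunit genes were mostly higher in plantaris. Of the 4 calcineurin subunit genes, 3 were at least 2-fold higher in plantaris than in normal soleus and 0 lower (median 1.22). The catalytic subunits Ppp3ca and Ppp3cb stood at 1.17 ± 0.21 and 1.28 ± 0.20 and the regulatory subunit Ppp3r1 at 1.37 ± 0.21, while the catalytic Ppp3cc was at 0.43 ± 0.20. None passed 2-fold with denervation (median 0.18, range -0.53 to 0.62). Ppp3ca, for instance, stood at -0.39 on the denervated array, 0.16 on the plantaris array and -1.01 on the normal soleus array.

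Of the 9 measured inhibitors and anchors, 1 was higher and 2 lower in plantaris over normal soleus (median -0.31), and 0 higher and 1 lower in denervated over normal soleus (median -0.05). The higher one was Myoz1, the calcineurin-binding Z-disc protein calsarcin-2 of fast fibres, at 3.66 ± 0.20 in plantaris and -0.21 ± 0.20 in denervated over normal soleus. Rcan2, the close relative of Rcan1, was lower in plantaris too (-1.64 ± 0.21). Unlike Rcan1 it was not lower in denervated soleus (0.29 ± 0.20), and its levels were -0.43 in denervated soleus, -2.36 in plantaris and -0.73 in normal soleus. Cib1, a calcium-binding anchor of calcineurin, stood at -0.44 in plantaris and 0.62 in denervated over normal soleus, and so at 1.06 ± 0.20 in denervated soleus over plantaris. Rcan3 lay within 0.3 of 0 in both comparisons. Of the 6 kinases that phosphorylate Nfat and send it out of the nucleus, Dyrk2 was higher in plantaris (1.55 ± 0.20, and 1.12 on another probe). Csnk1e was lower in denervated soleus on its brightest probe (-1.29 ± 0.22) but at -0.01 and 0.17 on 2 others. Gsk3a, Gsk3b, Dyrk1a and Csnk1a1 stayed within 2-fold in both.

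**Figure D3:**
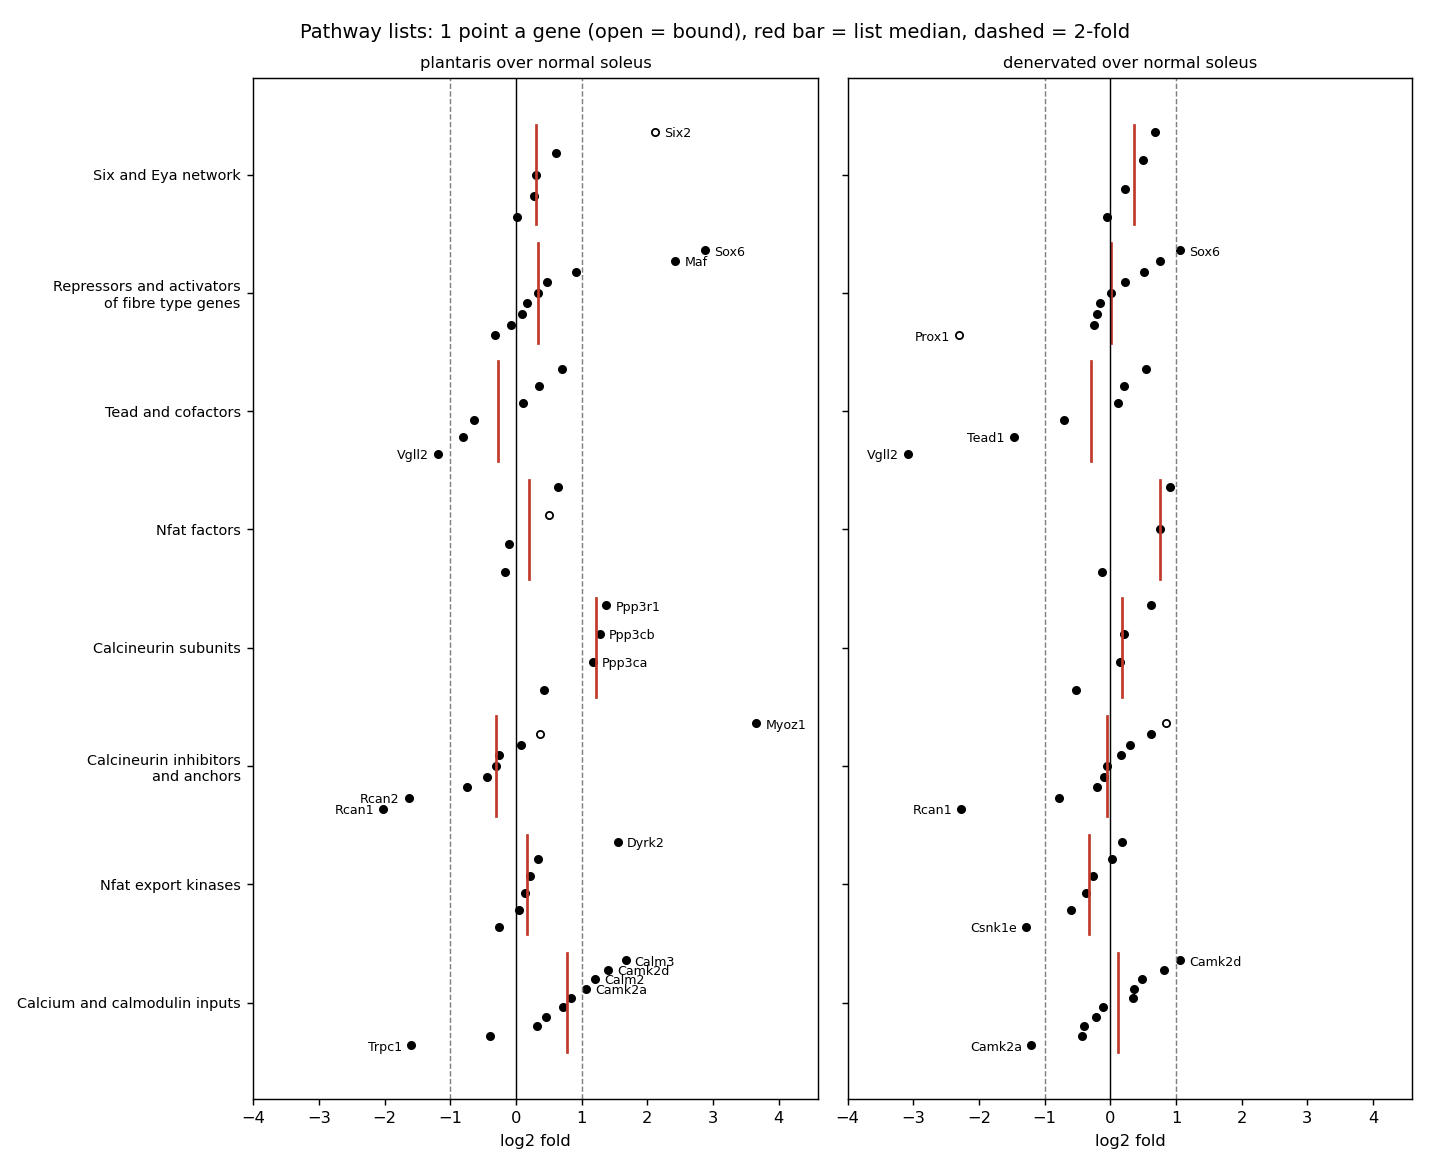
Log2 folds (x axis) of every measured gene of 8 pathway lists (y axis) in plantaris and in denervated over normal soleus. A point is a gene, open points are bounds, red bars are list medians and named genes are at least 2-fold apart. Calcineurin subunits lie to the right in plantaris, Rcan1 lies to the left in both panels, and Vgll2 is the lowest gene in the right panel.

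The remaining genes of the fibre type list differed little. Of its 9 measured genes 2 were higher and 0 lower in plantaris (median 0.33), and 1 was higher and 1 lower with denervation (median 0.01), all 4 of these being values of Sox6, Maf and Prox1. Nfix, which represses slow myosin in fetal mouse muscle, stood at 0.09 ± 0.20 and -0.26 ± 0.20. Purb, a repressor of the slow myosin gene, stood at 0.33 ± 0.20 and 0.01 ± 0.20. Bhlhe40 and Gtf2ird1 were also within 2-fold in both.

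Genes with the nearest pair of folds, plantaris and denervated each over normal soleus, were sought among 9854 genes well above background on all 3 arrays. Likeness is the straight-line distance in log2 units over these 2 folds, which rest on 3 arrays, so it is a description only. Nearest to Sox6 were Ltb, the cytokine lymphotoxin beta (distance 0.12), Spetex2f (0.22) and Tspan8 (0.32), and 4 genes in all lay within 0.5. Nearest to Maf were C8h3orf18 (0.02), the muscle-expressed cytokine gene Il15 (0.22) and Myl11, the fast regulatory myosin light chain also known as Mylpf (0.24), with 11 genes within 0.5. Nearest to the brighter Rcan1 probe were Cdh5, the endothelial cadherin (0.31), the antioxidant enzyme gene Gpx1 (0.33) and Pdlim1 (0.35), with 12 within 0.5. Nearest to its second probe were the small GTPase gene Rrad (0.10), Or1f20 (0.26) and Crym (0.32), with 6 within 0.5. Tead1 sat in a crowded region, with 526 genes within 0.5, the nearest being the ubiquinone enzyme gene Coq5 (0.02), the fumarase gene Fh (0.04) and Recql4 (0.05). The fainter Nfatc3 probe had 138 genes within 0.5, led by Cck, Gpd2 and Fstl4 at 0.02, 0.04 and 0.04.

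**Figure D4:**
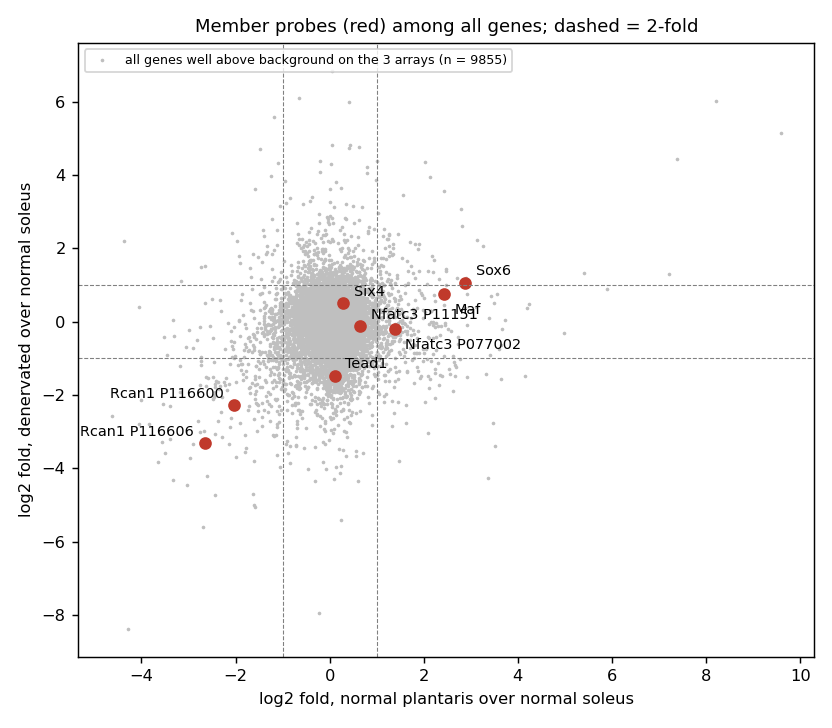
Log2 fold of plantaris over normal soleus (x axis) and of denervated over normal soleus (y axis) for genes well above background on the 3 arrays (grey) and the probes of Sox6, Maf, Six4, Tead1, Nfatc3 and Rcan1 (red). Dashed lines mark 2-fold. Both axes share the normal soleus array, and Rcan1 lies low on both while Tead1 lies low on the denervation axis alone.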

How the data were processed

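Total RNA of the 3 muscles was labelled with Cy3, and, per the submitters' processing notes, the arrays were quantified with Agilent Feature Extraction 10.10.1.1. Processed signals are linear intensity values that the software had corrected for background and spatial trend, per the file headers, and the arrays had not been scaled to each other. Per the file headers, other columns hold flags of 0 or 1. The authors' deposited value table is also an intensity and equalled the processed signal times 1.41 for denervated soleus, 1.80 for plantaris and 1.60 for normal soleus, on a scale the sources used here do not explain. Log2 signals of non-control spots were centred on the 75th percentile of each array, spots with outlier flags were left out (467 to 569 per array), 0 spots were saturated, and repeat spots were averaged. A probe was well above background where at least 50% of its spots were, and the brightest probe stood for a gene.

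A gene entered a comparison if well above background on at least 1 of its 2 arrays. Where it was so on 1 array, the fold is a bound against the higher of the signal measured there and the lowest signal of any probe above the mark. RefSeq accessions named 18005 of 30367 probes, for 15168 genes. The array was designed on an older rat build than the reference, so no coordinates are printed except those of the promoter windows. The number of arrays limits the precision. The members and lists were chosen with earlier results of these data known. The genes named are all members, every list gene at least 2-fold apart in any comparison or among the 2 largest of its list, and the 3 nearest patterns. The fast fibre list holds Mylpf, which the reference names Myl11, so that gene was measured but is not in the list counts. Some list genes are counted but not reported by name here. Other list genes were chosen after their values were seen. Fold counting was tested on simulated data. Python 3.11.15, numpy 2.4.6, pandas 2.3.3 and limma 3.58.1 (normexp background) were used.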

Additional observations from a re-analysis of the deposited data

How the results depend on the processing

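The alternatives were normexp background, quantile and median scaling, the authors' values, flagged spots kept, the median of repeat spots, the mean over probes, other filters on dim probes, and 1 spot per probe. The normexp correction was planned on mean signals, which the files used here do not hold, and was run on median signals. It and the 1-spot settings were chosen after seeing the data. No replicate could be left out. No paired analysis was possible because each group has 1 array and no test was run. No fold past 2-fold changed sign where a setting gave a value. For Prox1 in denervated soleus over plantaris, which is not read here, the last spot alone gave none. Neither of those spots was well above background, and they differed by 0.14. Rcan1 on both probes, and Sox6 and Maf in plantaris, stayed past 2-fold throughout over normal soleus, in the ranges -2.34 to -1.96 and -2.76 to -1.56 (Rcan1), 1.69 to 2.95 (Sox6) and 1.93 to 2.49 (Maf) for plantaris. The count of members higher with denervation was 0 with normexp and 0 from the last spot alone, since Sox6 fell short. The Prox1 bound with denervation also fell short in these settings, at -0.84 and -0.97, so Prox1 then left the count of lower members. With normexp the genes at least 2-fold higher numbered 309 in plantaris and 367 in denervated over normal soleus and 504 in denervated soleus over plantaris, and the lower ones 282 and 1001 for the first 2. With the authors' values 1568 were higher in denervated over normal soleus, and 2456 higher and 1213 lower in denervated soleus over plantaris, their scale moving the median of all genes there to 0.36 (-0.10 with normexp, -0.15 with no dim filter). Among genes well above background on both arrays 433 were lower in plantaris. The remaining 57 counts stayed within 1.5 times. Faint signals limit Sox6 in normal soleus, Prox1, and the second probes of Six4 and Nfatc3.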

Other observations

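Genes of calcium entry, calmodulin and the calmodulin-dependent kinases, which act beside calcineurin, also differed between the muscles. Of 10 measured, 4 were at least 2-fold higher and 1 lower in plantaris than in normal soleus (median 0.78), and 1 was higher and 1 lower in denervated than in normal soleus (median 0.12). The calmodulin genes Calm2 and Calm3 stood at 1.20 ± 0.20 and 1.67 ± 0.20 in plantaris over normal soleus. The calmodulin-dependent kinase genes Camk2a and Camk2d stood at 1.07 ± 0.23 and 1.40 ± 0.23 in plantaris over normal soleus, and the other Camk2d probe at 0.95. With denervation they parted, Camk2a at -1.21 ± 0.29 and Camk2d at 1.06 ± 0.23 (0.59 on another probe). Camk2b stood at -0.39 ± 0.20 in plantaris and 0.82 ± 0.20 in denervated over normal soleus, and at 1.21 ± 0.20 in denervated soleus over plantaris (0.77 on another probe). Trpc1, a cation channel gene, was lower in plantaris (-1.60 ± 0.21, and -1.46 on another probe) and at -0.43 ± 0.21 in denervated over normal soleus.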
